A study of Mus musculus with 9 samples.

Results

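The genes examined here encode the enzymes and transporters of glycolysis together with genes of the response to low oxygen, followed across 9 bulk RNA libraries of mouse embryonic stem cells. They were taken from a list of 32 names, chosen with earlier results of these data known: a row of the count table was taken where its symbol, or any symbol merged into the row, was on the list. All 32 had a row among the 30232 gene rows, and all 32 were among the 12645 genes that passed a filter on low counts and were tested. Gpi1, Pfkl and Pfkp each share their row with a transcript identifier and Eno1 shares its row with Eno1b, so the counts of these 4 rows cannot be split further.

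The libraries came from wild-type cells (4) and from cells labelled as a knockout of Gzf1 (5), a zinc finger protein that binds DNA. Replicates 1 and 2 of each genotype were from the RGM line and were sequenced in the batch labelled run2. Wild-type replicate 3 was V6.5, wild-type replicate 4 was Cas9-GFP, and knockout replicates 3, 4 and 5 were V6.5, all sequenced in run1. Every group grew with serum and the cytokine LIF on irradiated embryonic fibroblasts, which were depleted before harvest. The labels do not say how the knockout was made, nor whether the libraries of a group came from separate clones or cultures, so the spread behind each p-value is that of these libraries and may be technical. Because every run2 library was RGM and no run1 library was, line and run cannot be told apart, and the 2 sets are called the RGM libraries and the run1 libraries.

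Glycolysis splits glucose into pyruvate. Glucose enters through Slc2a transporters, hexokinases and phosphofructokinases commit it at the cost of ATP, and the enzymes from Gapdh to Pkm return ATP and pyruvate. Lactate dehydrogenase turns pyruvate into lactate, Slc16a3 exports the lactate, and Pdk1 restrains the entry of pyruvate into mitochondria by phosphorylating pyruvate dehydrogenase. When oxygen is low, the prolyl hydroxylases of the Egln family no longer mark Hif1a for destruction, and the stabilised factor raises many of these genes through the core motif of hypoxia response elements. Mouse embryonic stem cells in serum and LIF are known for a high rate of glycolysis even with oxygen present.

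The promoters of 5 genes that the results below describe are shown. Ldha and Ldhb differed in balance between RGM and run1 libraries, and Pdk1 was higher in RGM libraries of both genotypes. Adm and Egln3 varied most among V6.5 knockout libraries along with Aldoc. Each promoter window is the 250 bases before the RefSeq start on GRCm38.p6, 5′ to 3′ on the gene's strand. None of these windows overlaps an annotated exon of GENCODE M21. Capitals mark ACGTG or GCGTG, the core of the hypoxia response element, on either strand. The regions are chr7:46845554-46845803 (plus strand) for Ldha, chr6:142507958-142508207 (minus strand) for Ldhb, chr2:71872974-71873223 (plus strand) for Pdk1, chr7:110627407-110627656 (plus strand) for Adm and chr12:54203875-54204124 (minus strand) for Egln3. The Ldha window lies inside the gene as GENCODE M21 draws it, from position 46841475, but in none of its exons.
Ldha: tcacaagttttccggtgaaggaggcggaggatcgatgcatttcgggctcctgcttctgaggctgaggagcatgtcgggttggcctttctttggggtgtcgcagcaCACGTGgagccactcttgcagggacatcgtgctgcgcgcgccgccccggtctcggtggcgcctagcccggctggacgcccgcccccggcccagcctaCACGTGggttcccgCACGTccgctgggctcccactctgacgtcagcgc
Ldhb: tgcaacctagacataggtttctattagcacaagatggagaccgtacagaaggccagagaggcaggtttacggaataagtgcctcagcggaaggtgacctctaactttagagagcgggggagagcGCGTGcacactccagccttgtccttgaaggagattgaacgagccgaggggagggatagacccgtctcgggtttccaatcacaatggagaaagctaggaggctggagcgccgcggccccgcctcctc
Pdk1: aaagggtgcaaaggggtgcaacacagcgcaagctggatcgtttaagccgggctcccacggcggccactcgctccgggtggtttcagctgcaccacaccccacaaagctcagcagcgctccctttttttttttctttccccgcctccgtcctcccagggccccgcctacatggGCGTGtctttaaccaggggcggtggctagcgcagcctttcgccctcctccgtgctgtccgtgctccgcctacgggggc
Adm: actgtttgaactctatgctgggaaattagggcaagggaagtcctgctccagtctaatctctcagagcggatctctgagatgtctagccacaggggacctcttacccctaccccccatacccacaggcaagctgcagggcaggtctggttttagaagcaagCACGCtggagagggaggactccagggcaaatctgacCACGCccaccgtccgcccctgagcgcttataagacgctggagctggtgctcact
Egln3: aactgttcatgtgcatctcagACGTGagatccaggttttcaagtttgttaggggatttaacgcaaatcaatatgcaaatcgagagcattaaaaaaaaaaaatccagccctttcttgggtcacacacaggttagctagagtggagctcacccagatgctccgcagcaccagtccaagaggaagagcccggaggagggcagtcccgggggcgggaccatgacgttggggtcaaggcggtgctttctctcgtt
The Ldha window holds 5 matches, of which the 2 copies of CACGTG (an E-box that contains ACGTG on both strands) give 4. Adm holds 2 matches to GCGTG, both on the opposite strand, Ldhb and Pdk1 hold 1 GCGTG each, and Egln3 holds 1 ACGTG. RefSeq windows were matched for 30 of the 32 genes, not for Slc2a3 or Bnip3l. Of these, 15 (50%) hold ACGTG, against 16.5% of all 27025 promoters in the table and 22.2% of the promoters of tested genes. GCGTG was in 16 (53.3%), against 28.3% of all promoters and 46.4% of those of tested genes. CACGTG was in 4 (13.3%), against 6.04% and 8.8%. A match of letters is a description of the window and not a site of binding.

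Total counts ran from 2568489 to 3704162 in the RGM libraries and from 4872127 to 7072697 in the run1 libraries, and levels are given as CPM, counts brought to a common library size that was scaled by trimmed means. The limit that a count of 0 allows (3 counts) lay between 0.41 and 1.18 CPM. Gzf1 read between 8.11 and 29.995 CPM in wild-type and between 1.66 and 14.2 CPM in knockout libraries, which overlap, with a log2 difference of -1.45 (SE 0.42, edgeR adjusted p = 0.9998), and a tag at the 3′ end need not report an edit elsewhere in the gene. All 20 embryonic stem cell markers were among the tested genes, and their summed level was 8289 to 9153 CPM in RGM libraries and 7653 to 9532 CPM in run1 libraries. Fibroblast markers, of which 32 of 33 were tested, were present throughout and differed between the sets: their summed level was 5308 to 8219 CPM in RGM libraries and 2896 to 4195 CPM in run1 libraries, without overlap. Of the 32, 16 passed the test as higher in RGM in wild-type and 17 in knockout libraries, and none as lower, with medians of 0.97 and 0.92 on the log2 scale. Of all tested genes, 12.1% passed as higher and 12.3% as lower in wild-type, and 12.6% and 12.4% in knockout libraries. Lum, the untested marker, read 0 in at least 1 run1 library. Endoderm and trophoblast markers, 9 of 17 tested, summed to 169 to 195 CPM in RGM and 125 to 215 CPM in run1 libraries, with Afp, Cdx2 and Elf5 at 0 in some libraries of each set. In bulk RNA, more cells of a type and more RNA per cell cannot be told apart.

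Among the 32 genes, Pkm, which makes pyruvate in the last step of glycolysis, and Ldha, which makes lactate, were the most abundant by mean CPM. A tag library reads each transcript at its 3′ end, so CPM is not divided by length. Pkm averaged 2566 CPM over the 9 libraries (rank 17 of 12645) and Ldha 2392 CPM (rank 21). Aldoa, which cleaves fructose bisphosphate, averaged 1480.0 CPM, and Slc2a3, the high-affinity glucose transporter, 1423 CPM, ranks 52 and 55. At the other end stood enzymes that every cell uses: Gapdh averaged 22.1 CPM (rank 7023), Pgk1 35.5 CPM (rank 5456) and Pgam1 10.4 CPM (rank 9212). A search of GENCODE M21 transcripts found that 90.5% of the 50-base windows in the last 500 bases of Gapdh occur exactly in transcripts of other genes, 141 in number, 135 of them processed pseudogenes. The share was 75.2% for Eno1, 74.1% for Mif, 74.1% for Bnip3, 100% for Pfkp and 24.4% for Ldhb. The windows of Pfkp were found in 1 other gene and those of Bnip3 in 2, with 0 processed pseudogenes for either. The search did not set aside annotated genes that overlap the same locus. For Pgk1 the share was 7.32% and for Pgam1 0%, while over their whole transcripts it was 68% and 41.5%. In all, 10 of the 32 genes had any such window and 5 had it over more than 50%. No source used here gives how reads with several matches were counted, so the levels of these genes are uncertain, and the part of shared sequence in them was not tested.

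**Figure D1:**
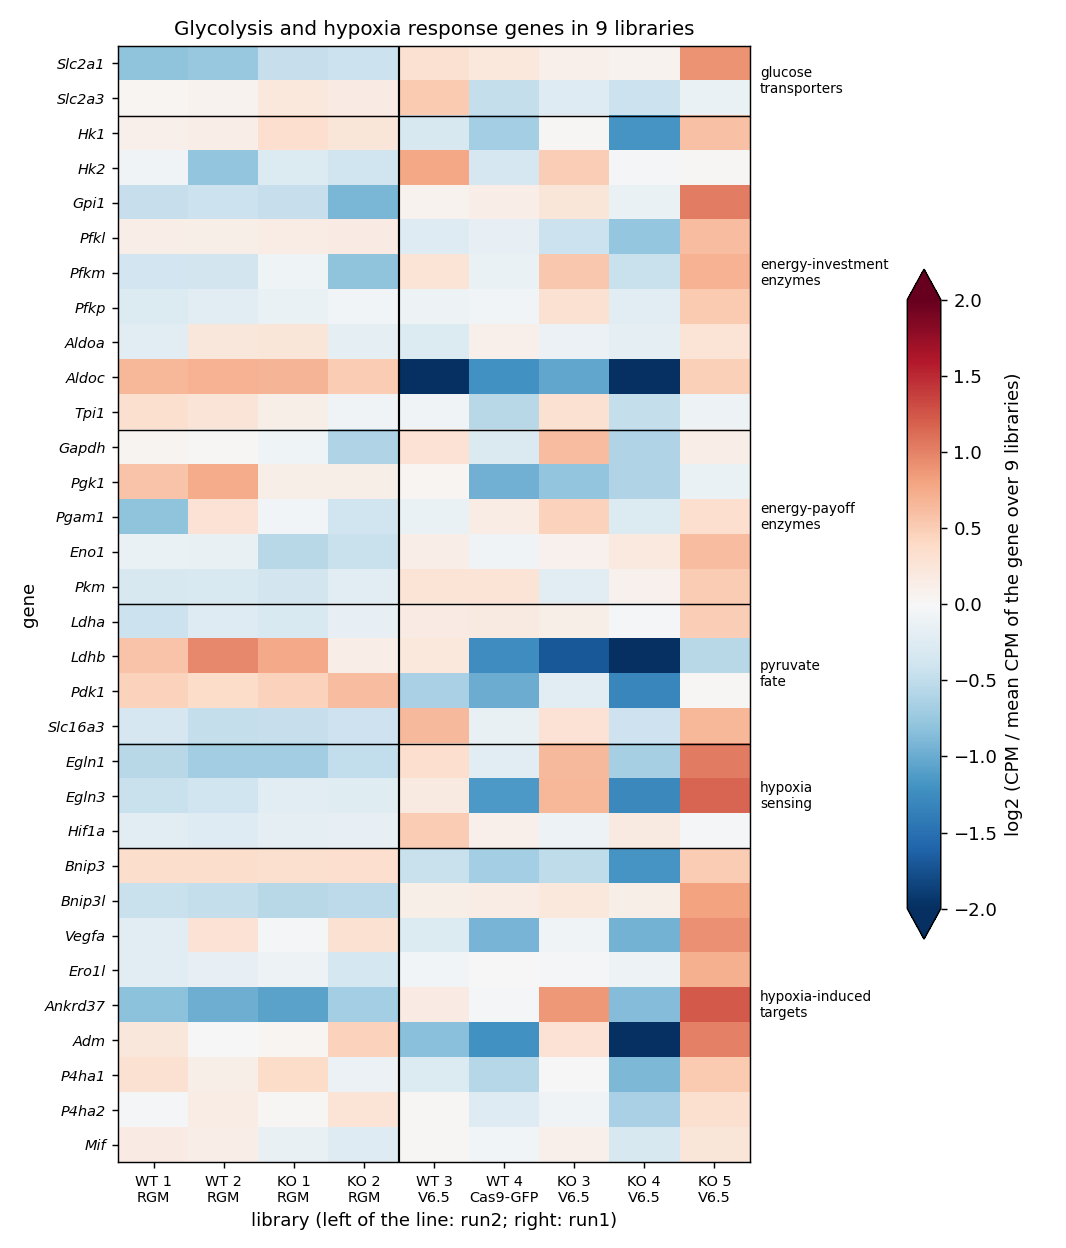
Each row is 1 of the 32 genes and each column 1 library, coloured by log2 of CPM over the gene's mean across the 9 libraries (blue below the mean, red above it). Aldoc and Pdk1 are redder in the 4 RGM libraries on the left, as is Ldhb except that wild-type V6.5 lies within its RGM range. Slc2a1 and Bnip3l are redder on the right, as is Ankrd37 except that V6.5 knockout replicate 4 lies within its RGM range. V6.5 knockout replicate 5 is the highest of 9 for 22 genes.

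Between RGM and run1 libraries, 9 of the 32 genes passed the test in at least 1 genotype. In RGM libraries, Slc2a1, the widespread glucose transporter, was lower in both genotypes, and Pdk1 was higher in both. Aldoc, an aldolase best known from brain, and Pgk1, the first enzyme that returns ATP, were higher in the wild-type comparison, and Ldhb, the lactate dehydrogenase that prevails in oxidative tissues, was higher in the knockout comparison. Gpi1, Eno1, Bnip3l and Ankrd37 were lower in RGM in the knockout comparison. The wild-type comparison set 2 RGM libraries against V6.5 and Cas9-GFP. The knockout comparison set 2 RGM libraries against 3 of V6.5, so the compared libraries were not shared. Both were contrasts of 1 fit to all 9 libraries with a shared estimate of spread. The SE and p of each comparison therefore also depend on the libraries of the other genotype.

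Of the 32 genes, 4 passed the test (edgeR's quasi-likelihood test, Benjamini-Hochberg adjusted p under 0.05) in the wild-type comparison, 3 higher and 1 lower, where 24.4% of all tested genes passed, 12.1% as higher and 12.3% as lower. In the knockout comparison 7 passed, 2 higher and 5 lower, where 25% of all tested genes did, 12.6% as higher and 12.4% as lower. The 9 genes called in at least 1 comparison stand beside 32% of all tested genes, and both comparisons called Slc2a1 and Pdk1, with 17.4% as background. The sign was the same in both for 28 of 32 genes and for 83.6% of all tested genes. In both comparisons the calls in either direction were below the share of all tested genes, while the 5 lower calls in knockout libraries were slightly above the share for that direction. The same-sign count was close to its background. The median log2 difference of the 32 genes was -0.07 in wild-type and -0.28 in knockout libraries, beside -0.01 and -0.02 over all tested genes.

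Slc2a1 stood at 317 and 329 CPM in the wild-type RGM libraries and at 402 and 409.7 CPM in the knockout RGM libraries. In run1 it was at 687 CPM in wild-type V6.5, 641 CPM in wild-type Cas9-GFP and 594, 581 and 1030.3 CPM in V6.5 knockout replicates 3, 4 and 5. All 4 RGM libraries lay below all 5 run1 libraries. The log2 difference, RGM minus run1, was -1.04 (SE 0.25, adjusted p = 0.0109) in wild-type and -0.86 (SE 0.23, adjusted p = 0.0175) in knockout libraries. Slc2a3, by contrast, read 1468 and 1490.3 CPM in wild-type RGM, 1650.0 and 1599 CPM in knockout RGM, 2043 CPM in wild-type V6.5, 1018 CPM in Cas9-GFP and 1190.0, 1053 and 1301 CPM in V6.5 knockout libraries. The Slc2a3 sets overlapped, and its differences of -0.05 (SE 0.26) and 0.46 (SE 0.23) on the log2 scale did not pass the test.

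Among the 9 energy-investment genes, from hexokinase to triose phosphate isomerase, 1 passed as higher in wild-type and 1 as lower in knockout libraries. Aldoc was at 124 and 127 CPM in wild-type RGM and 124 and 111 CPM in knockout RGM libraries. It was at 17.7 CPM in wild-type V6.5, 33.5 CPM in Cas9-GFP and 38.0, 17.3 and 108 CPM in V6.5 knockout replicates 3, 4 and 5. The RGM libraries were tightly grouped and above every run1 library, with V6.5 knockout replicate 5 close beneath them. The log2 difference was 2.30 (SE 0.62, adjusted p = 0.0209) in wild-type and 1.10 (SE 0.53, adjusted p = 0.152) in knockout libraries, so only the first passed. Gpi1, which turns glucose phosphate into fructose phosphate, was at 275 and 281 CPM in wild-type RGM, 276 and 201 CPM in knockout RGM, 399 and 413 CPM in wild-type run1 and 447, 345 and 768 CPM in V6.5 knockout libraries. All RGM values of Gpi1 lay below all run1 values. Its log2 difference was -0.55 (SE 0.30, adjusted p = 0.208) in wild-type and -1.12 (SE 0.29, adjusted p = 0.0149) in knockout libraries.

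The other energy-investment genes did not pass in either comparison. The hexokinases went opposite ways by value, Hk1 with 0.60 (SE 0.41) and 0.31 (SE 0.37) and Hk2 with -0.71 (SE 0.34) and -0.51 (SE 0.31) on the log2 scale. The phosphofructokinases, which carry the committing step, read 0.34 (SE 0.34) and 0.22 (SE 0.31) for Pfkl, -0.47 (SE 0.39) and -0.74 (SE 0.36) for Pfkm, and -0.16 (SE 0.21) and -0.33 (SE 0.20) for Pfkp. Aldoa, the main aldolase here, ran from 1223 to 1787 CPM over the 9 libraries, with 0.10 (SE 0.23) and 0.04 (SE 0.21), and Tpi1, which interconverts the triose phosphates, gave 0.59 (SE 0.24) and 0.08 (SE 0.22).

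Of the 5 energy-payoff genes, Pgk1 passed in wild-type and Eno1 in knockout libraries. Pgk1 was at 52.6 and 59.2 CPM in wild-type RGM, 38.4 and 38.3 CPM in knockout RGM, 36.3 and 18.3 CPM in wild-type V6.5 and Cas9-GFP, and 20.6, 23.4 and 32.3 CPM in V6.5 knockout libraries. The RGM libraries were all above the run1 libraries, though knockout RGM and wild-type V6.5 nearly met. The log2 difference was 1.02 (SE 0.32, adjusted p = 0.034) in wild-type and 0.59 (SE 0.29, adjusted p = 0.158) in knockout libraries. The wild-type value ran from 0.62 without Cas9-GFP to 1.61 without wild-type V6.5, and the call was lost in 5 of 9 fits with 1 library left out. Eno1, which makes phosphoenolpyruvate, was at 714 and 706 CPM in wild-type RGM, 534 and 577 CPM in knockout RGM, 862 and 750.0 CPM in wild-type run1 and 837, 897 and 1206 CPM in V6.5 knockout libraries. Its log2 difference was -0.18 (SE 0.19, adjusted p = 0.522) in wild-type and -0.82 (SE 0.18, adjusted p = 0.00705) in knockout libraries. Both genes are among those whose transcript is largely repeated elsewhere in the annotation. Pkm was at 2059 and 2076 CPM in wild-type RGM, 1985 and 2199 CPM in knockout RGM, 3093 and 3109 CPM in wild-type run1 and 2217, 2712 and 3648 CPM in V6.5 knockout libraries. All RGM values of Pkm were below all run1 values, and its log2 differences of -0.58 (SE 0.21) and -0.45 (SE 0.20) did not pass the test. Gapdh and Pgam1, with 0.01 (SE 0.37) and -0.46 (SE 0.35), and -0.20 (SE 0.42) and -0.43 (SE 0.39), overlapped between the sets.

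At the fate of pyruvate, 2 of 4 genes passed in at least 1 comparison, both as higher in RGM. Ldhb was at 619.7 and 816 CPM in wild-type RGM and 708 and 459 CPM in knockout RGM libraries. It was at 483 CPM in wild-type V6.5, 177 CPM in Cas9-GFP and 129, 88.5 and 284 CPM in V6.5 knockout replicates 3, 4 and 5. The V6.5 wild-type library lay within the RGM range, whereas the V6.5 knockout libraries lay below it. The log2 difference was 1.12 (SE 0.52, adjusted p = 0.132) in wild-type and 1.80 (SE 0.46, adjusted p = 0.0159) in knockout libraries. Pdk1 was at 255 and 239 CPM in wild-type RGM, 255 and 285 CPM in knockout RGM, 118 and 93.5 CPM in wild-type V6.5 and Cas9-GFP, and 161, 74.8 and 188 CPM in V6.5 knockout libraries. No RGM value of Pdk1 overlapped a run1 value, and the log2 difference was 1.22 (SE 0.33, adjusted p = 0.0213) in wild-type and 0.93 (SE 0.30, adjusted p = 0.0382) in knockout libraries. Ldha was at 1785 and 2007 CPM in wild-type RGM, 1933 and 2139 CPM in knockout RGM, 2680.5 and 2704 CPM in wild-type run1, and 2586, 2318 and 3373 CPM in V6.5 knockout libraries. Its RGM libraries were all below its run1 libraries, with log2 differences of -0.51 (SE 0.19, adjusted p = 0.0731) in wild-type and -0.44 (SE 0.18, adjusted p = 0.0891) in knockout libraries, neither past the threshold. Slc16a3, the lactate exporter, gave -0.70 (SE 0.32) and -0.68 (SE 0.30), which did not pass.

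None of the 3 oxygen-sensing genes passed in either comparison. Hif1a, the oxygen-regulated factor itself, was at 81.3 to 86.8 CPM in RGM and 90.7 to 138 CPM in run1 libraries, without overlap, and gave -0.55 (SE 0.20) and -0.20 (SE 0.18). The prolyl hydroxylases Egln1 and Egln3 gave -0.71 (SE 0.41) and -1.10 (SE 0.39), and -0.09 (SE 0.59) and -0.73 (SE 0.55). Of the 9 other hypoxia-induced genes, 2 passed as lower in RGM, both in knockout libraries. Bnip3l, a receptor for the removal of mitochondria, was at 157 and 155 CPM in wild-type RGM, 145 and 149 CPM in knockout RGM, 232 and 238 CPM in wild-type run1 and 248, 232 and 375 CPM in V6.5 knockout libraries. All its RGM values were below all its run1 values, with -0.59 (SE 0.22, adjusted p = 0.0694) in wild-type and -0.95 (SE 0.21, adjusted p = 0.00641) in knockout libraries. Ankrd37, a known target of Hif1a, was at 38.3 and 34.3 CPM in wild-type RGM, 32.03 and 41.8 CPM in knockout RGM, 75.1 and 65.8 CPM in wild-type run1, and 123, 37.0 and 158 CPM in V6.5 knockout libraries. V6.5 knockout replicate 4 lay within its RGM range, and the log2 difference was -0.95 (SE 0.49, adjusted p = 0.175) in wild-type and -1.53 (SE 0.47, adjusted p = 0.0329) in knockout libraries. Bnip3, the close relative of Bnip3l, went the other way by value, with 0.92 (SE 0.39) and 0.55 (SE 0.35). The remaining 6, Vegfa, Ero1l, Adm, P4ha1, P4ha2 and Mif, lay between -0.47 and 1.12.

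**Figure D2:**
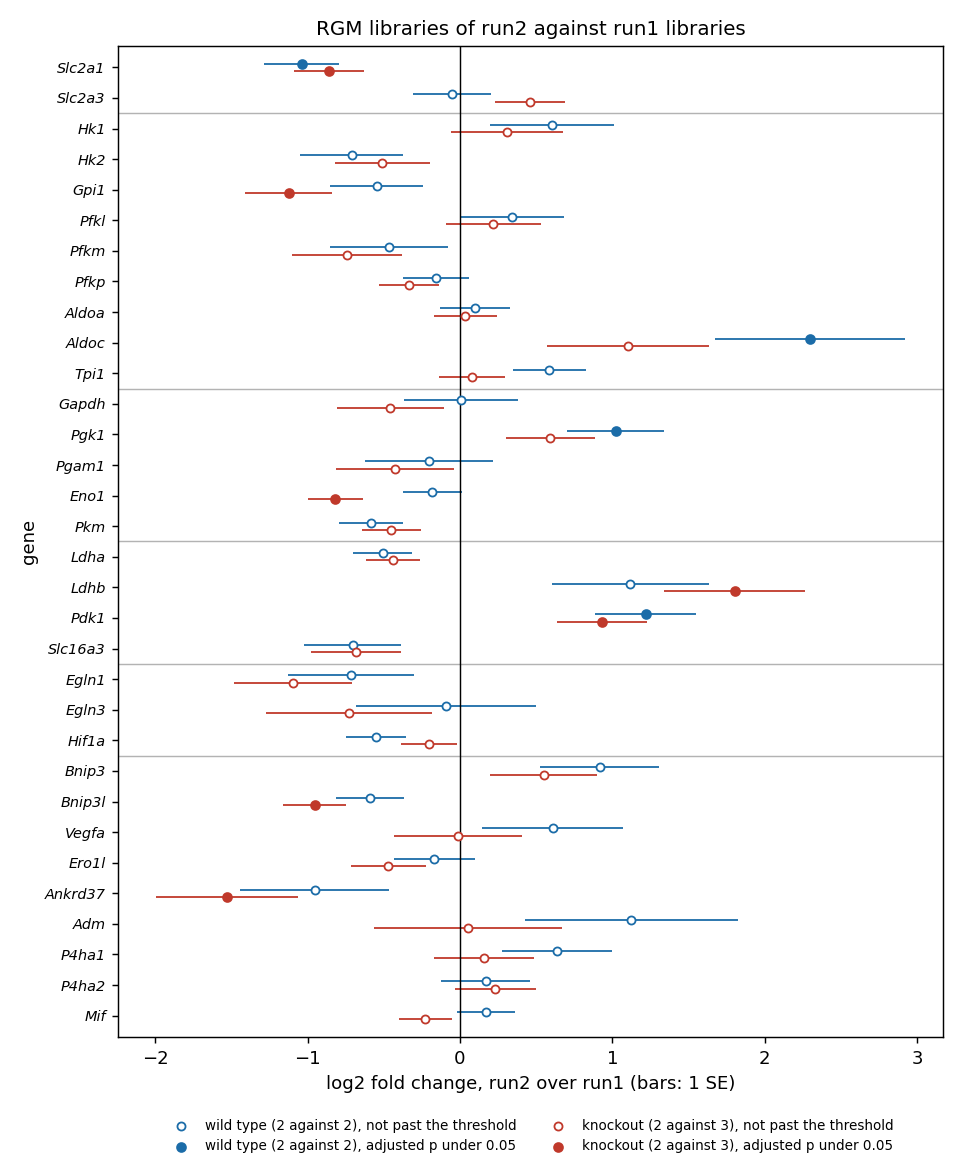
Points are log2 fold changes of RGM (run2) over run1 libraries in wild-type (blue, 2 against 2) and knockout (red, 2 against 3) cells, with bars of 1 SE, filled where the edgeR adjusted p was under 0.05. Slc2a1 and Pdk1 are filled in both, and 28 of 32 genes have the same sign in both.

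RGM and run1 libraries did not overlap for 11 of the 32 genes, beside 38.6% of all tested genes. RGM libraries lay above every run1 library for 3 of the 32 genes, Aldoc, Pgk1 and Pdk1, beside 19.4% of all tested genes. They lay below every run1 library for 8, namely Slc2a1, Gpi1, Eno1, Pkm, Ldha, Bnip3l, Ero1l and Hif1a, beside 19.2% of all tested genes. The summed fibroblast level, given above, was also higher in every RGM library, and its part in the genes that were higher in RGM was not tested. These differences rest on few libraries: with 1 RGM library of the compared genotype left out, which leaves an arm of 1, the number of the 32 genes called was 0 in wild-type (beside 7.1% and 6.81% of all tested genes) and 0 in knockout libraries (beside 7.47% and 7.11%), and without wild-type replicate 3 it was 1 in wild-type (3.12%, beside 13.1%). Most of the other choices that moved the number called more of the 32, at a share above that of all tested genes. Without V6.5 knockout replicate 4 the number was 14 in wild-type (43.8%, beside 32.9% of all tested genes) and 13 in knockout libraries (40.6%, beside 27.6%). Without replicate 5 it was 10 in wild-type (31.2%, beside 30.3%). With replicates 4 and 5 both left out, a choice made once their values were known, it was 14 in knockout libraries (43.8%, beside 29.5%). Limma voom called 14 (43.8%, beside 38.5%) and 12 (37.5%, beside 30.5%), and edgeR without the filter on low counts called 16 (50%, beside 19%) and 14 (43.8%, beside 18.8%). Fits to 1 genotype alone called 18 (56.2%, beside 35.3%) in wild-type and 4 (12.5%, beside 15.2%) in knockout libraries. Whether the calls stand above or below the background therefore depends on these choices. Leaving out 1 run1 library also ended single calls: without wild-type V6.5 those of Slc2a1, Aldoc and Pdk1 in wild-type libraries, without Cas9-GFP those of Aldoc, Pgk1 and Pdk1 there, without V6.5 knockout replicate 3 those of Ldhb, Pdk1 and Ankrd37 in knockout libraries, and without replicate 5 that of Ankrd37. Pdk1 in knockout libraries and Pgk1 in wild-type libraries also lost their calls when either RGM library of the other genotype was left out. Without V6.5 knockout replicate 5 the knockout values of Slc2a1 and Gpi1 were -0.55 and -0.75, each still past the test.

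The balance of isozymes differed between the RGM and run1 libraries. In RGM libraries more of the lactate dehydrogenase counts came from Ldhb, more of the aldolase counts from Aldoc, more of the phosphofructokinase counts from Pfkl and more of the paired Bnip3 counts from Bnip3 itself. In run1 libraries more of the glucose transporter counts came from Slc2a1. Shares within a library need no scaling between libraries, and they were described without a test.

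Ldha made up 74.2% and 71.1% of the counts of Ldha and Ldhb in wild-type RGM, and 73.2% and 82.3% in knockout RGM libraries. It made up 84.7% in wild-type V6.5, 93.9% in Cas9-GFP and 95.2%, 96.3% and 92.2% in V6.5 knockout libraries. The means were 75.2% ± 4.93 (SD, n = 4) in RGM and 92.5% ± 4.59 (SD, n = 5) in run1 libraries, and the sets did not overlap. Slc2a1 held 19.0% ± 1.24 (SD, n = 4) of the counts of Slc2a1 and Slc2a3 in RGM and 35.4% ± 7.02 (SD, n = 5) in run1 libraries, from 17.8% to 20.4% against 25.2% to 44.2%. Bnip3 held 66.5% ± 0.54 (SD, n = 4) of its pair with Bnip3l in RGM, a spread far narrower than the 40.0% ± 5.96 (SD, n = 5) of run1. The Bnip3 share ran from 65.9% to 67.1% in RGM and from 31.2% to 47.4% in run1 libraries. Aldoc held 7.54% ± 0.99 (SD, n = 4) of the aldolase pair in RGM and 2.65% ± 1.80 (SD, n = 5) in run1, where V6.5 knockout replicate 5 was the highest at 5.71%. Pfkl held 62.6% ± 1.13 (SD, n = 4) of the phosphofructokinase trio in RGM and 52.0% ± 5.89 (SD, n = 5) in run1, again without overlap. The 95% intervals of single libraries (Clopper-Pearson), which cover counting error only, did not overlap between the sets for Ldha, Slc2a1 and Bnip3. For the nearest libraries of Aldoc and Pfkl they did overlap: Aldoc was at 6.01% to 7.31% in knockout RGM replicate 1 and 5.29% to 6.15% in V6.5 knockout replicate 5, and Pfkl was at 59.3% to 63.8% in knockout RGM replicate 2 and 57.4% to 59.9% in V6.5 knockout replicate 5. Bnip3, Pfkp and Ldhb are among the genes whose 3′ end is repeated in other annotated genes, as given above, and the part of this in their shares was not tested. The shares of Hk1 in the hexokinases, Egln3 in the prolyl hydroxylase pair and P4ha1 in the collagen prolyl hydroxylase pair overlapped between the sets.

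**Figure D3:**
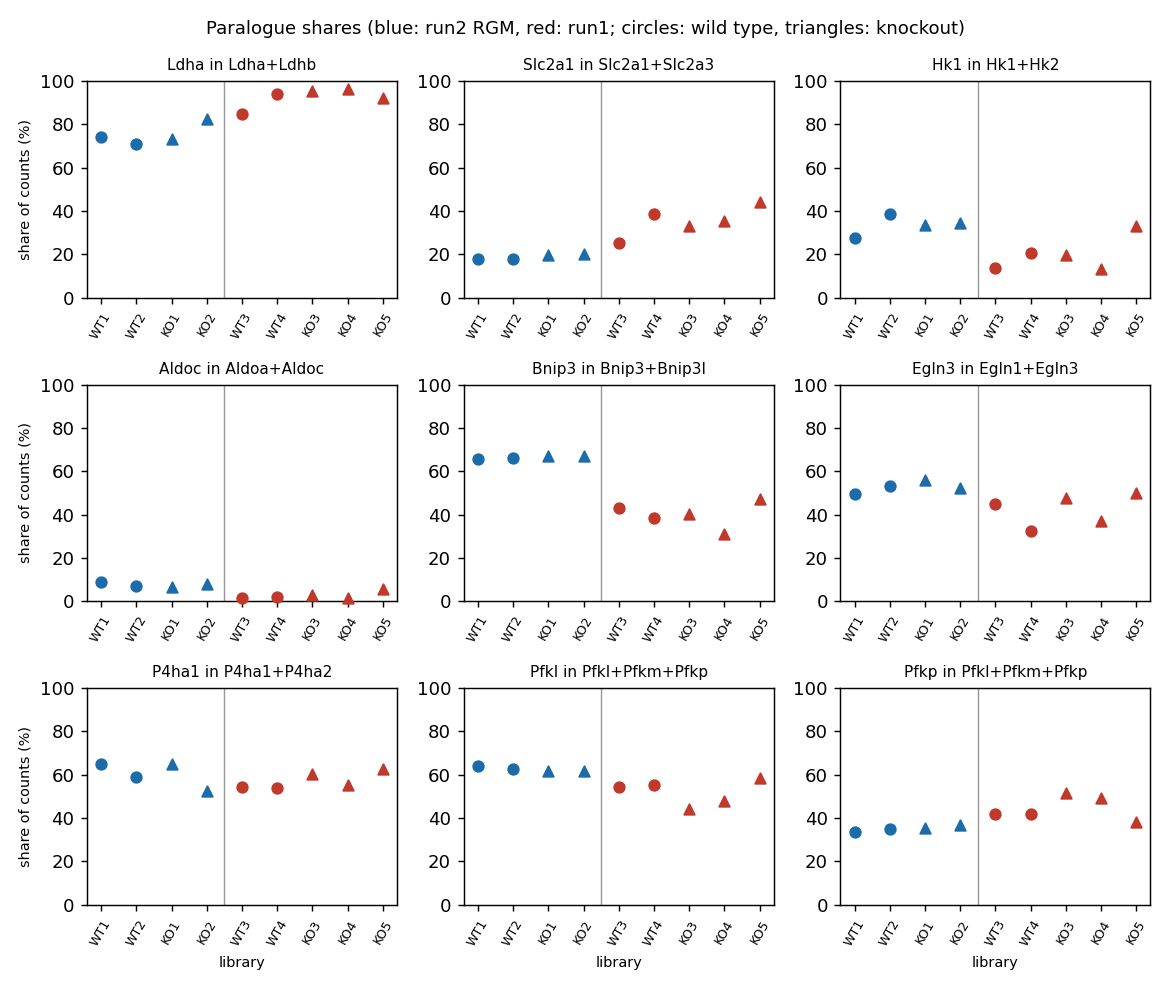
Each panel gives one paralogue as a percent of the counts of its pair or trio in each of the 9 libraries (blue RGM, red run1, circles wild type, triangles knockout). The Ldha share is 71.1% to 82.3% in RGM and 84.7% to 96.3% in run1 libraries, and the Bnip3 share is nearly constant across the 4 RGM libraries.

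The 3 V6.5 knockout libraries, which carry the same labels, spread widely over these genes. Replicate 5 was above replicate 4 in 31 of the 32 genes, Hif1a being the exception at a ratio of 0.861, and it was at least 2-fold above in 15, beside 9.3% of all tested genes. Replicate 5 was the highest of all 9 libraries in 22 of 32 genes, beside 14.3% of all tested genes, and replicate 4 the lowest in 12, beside 15.2%. The median log2 ratio of replicate 5 to replicate 4 was 0.90 over the 32 genes and 0.01 over the 12494 tested genes with a count in every library. These are single libraries picked after their values were seen, so the ratios are descriptions with no test.

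Adm, which encodes the vasodilator adrenomedullin, was at 14.4, 2.51 and 23.6 CPM in V6.5 knockout replicates 3, 4 and 5, a ratio of 9.42 between the last and replicate 4, which held 12 counts. Its RGM libraries read 13.7 and 11.8 CPM (wild type) and 12.2 and 16.2 CPM (knockout), and it read 6.59 and 5.09 CPM in wild-type run1 libraries. Replicates 4 and 5 were thus the lowest and the highest of all 9. The ratio of replicate 5 to replicate 4 was 6.24 for Aldoc, 5.46 for Egln3, 4.27 for Ankrd37 and 3.62 for Vegfa, the angiogenic growth factor. Egln3 was at 159, 41.1 and 225 CPM, against 74.1 and 76.6 and 86.2 and 85.2 CPM in RGM and 114 and 45.4 CPM in wild-type V6.5 and Cas9-GFP libraries. Vegfa was at 76.3, 41.8 and 151 CPM in the V6.5 knockout libraries and at 42.2 to 99.1 CPM in the others. The ratio was 3.42 for Hk1, 3.24 for Egln1, 3.22 for Bnip3, 3.20 for Ldhb, 2.70 for P4ha1, which hydroxylates collagen, 2.62 for Pfkl, 2.51 for Pdk1, 2.23 for Gpi1, 2.22 for Pfkm and 2.11 for Slc16a3. P4ha2, at 1.959, lay just outside the 2-fold line. Replicate 3 mostly lay between the others, with a median log2 ratio to replicate 4 of 0.56.

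By role, the 15 genes at 2-fold or more were 5 of the 9 hypoxia-induced targets (Adm, Ankrd37, Vegfa, Bnip3 and P4ha1), 2 of the 3 oxygen-sensing genes (both prolyl hydroxylases), 3 of the 4 pyruvate-fate genes and 5 of the 9 energy-investment genes. None of the 2 glucose transporters and none of the 5 energy-payoff enzymes was among them.

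The 4 RGM libraries, of both genotypes, varied less: the median SD of log2 CPM was 0.15 among them and 0.52 among the V6.5 knockout libraries for the 32 genes, beside 0.19 and 0.34 over the 12494 tested genes with a count in every library. The SD was larger among the V6.5 knockout libraries for 29 of 32 genes (90.6%), and for 73.6% of those 12494 genes. Genes outside the list gave the following ratios of replicate 5 to replicate 4, beside 9.3% of all tested genes at least 2-fold higher. The share of all tested genes at least 2-fold lower was not obtained, so the counts of lower genes stand without a background. Of 7 other isoforms of glycolytic enzymes with a count in every library, 5 were at least 2-fold higher in replicate 5, and of 51 other hypoxia-induced genes, 13 were at least 2-fold higher and 2 at least 2-fold lower. Of 13 regulators of glycolytic flux, 0 were 2-fold higher and 2 were 2-fold lower, and of 11 genes of the pentose phosphate pathway none was 2-fold apart. Of 17 genes of glycogen and hexose interconversion, 3 were 2-fold higher and 0 lower (median log2 ratio 0.32). Of 13 genes of the pyruvate dehydrogenase complex, 2 were higher and 0 lower (median -0.08). Of 17 other genes of the oxygen-sensing machinery, 2 were higher and 1 lower (median -0.06). Of 4 genes of glucose uptake and lactate export, 0 were 2-fold apart (median 0.64). Fibroblast markers went the other way, with a median log2 ratio of -0.37 none of 32 at least 2-fold higher and 2 at least 2-fold lower, and embryonic stem cell markers had a median of -0.04, with none of 20 beyond 2-fold. Endoderm and trophoblast markers went both ways: of 9, 3 were at least 2-fold higher and 2 at least 2-fold lower in replicate 5. Their median log2 ratio to replicate 4 was 0.70 in replicate 5 and 0.62 in replicate 3. The part of these markers in the spread was not tested. Of the promoters, 12 of 15 of the genes at least 2-fold apart hold ACGTG or GCGTG, and 11 of 15 of the other genes do. The share was 57.7% for promoters of tested genes and 38.6% for all promoters. Total counts were 4872127 in replicate 4 and 6073914 in replicate 5, and the part of depth was not tested.

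**Figure D4:**
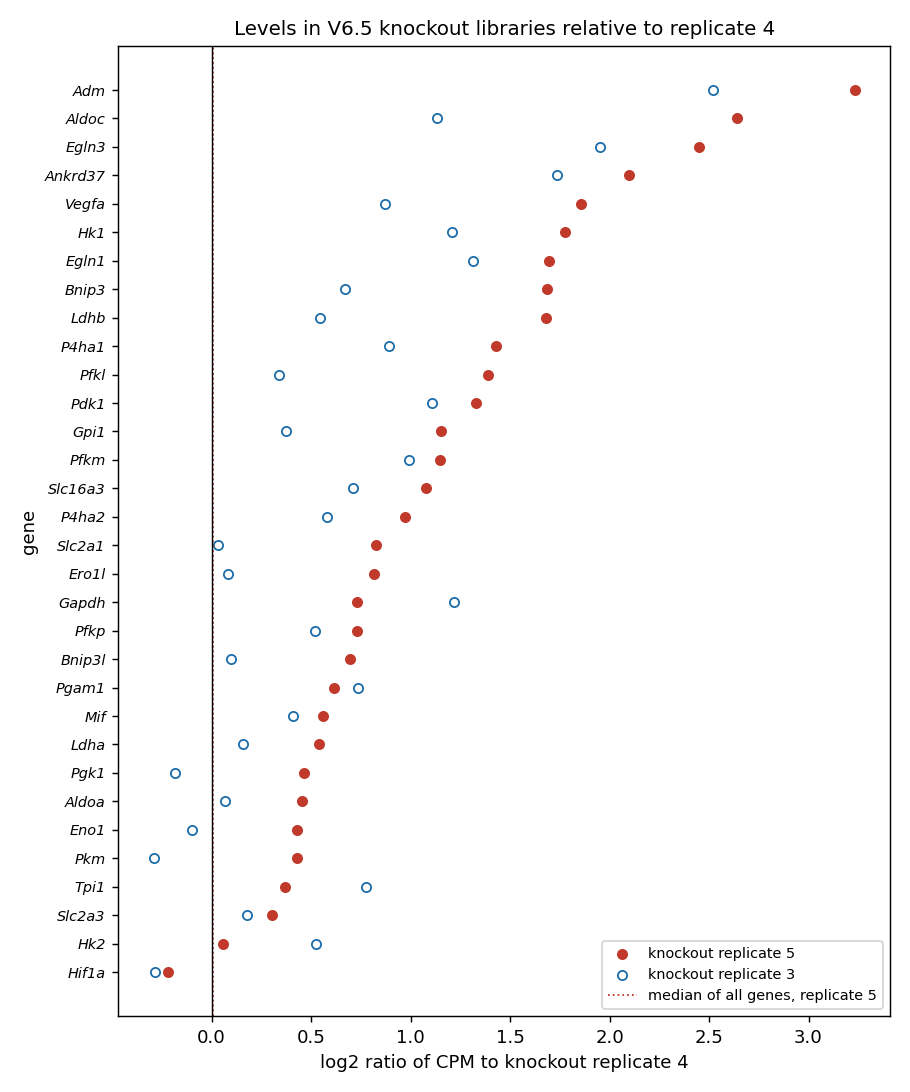
For each of the 32 genes, the log2 ratio of CPM in V6.5 knockout replicate 5 (filled red) and replicate 3 (open blue) to replicate 4, ordered by the ratio of replicate 5. The red points lie right of 0 for 31 genes, reach 3.24 for Adm, and their median over all genes, the dotted line, is 0.01.

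For genotype, none of the 32 genes passed the test. The counts called were 0 of 32 over all 9 libraries with run as a term (all tested genes 0.0316%), 0 within RGM (all tested genes 0%), 0 within run1 (all tested genes 0.0158%) and 0 for the difference between them (all tested genes 0%). At an unadjusted p under 0.05 the counts were 0, 0, 0 and 1, the last being Eno1 with an interaction of -0.64 (SE 0.26) on the log2 scale, and DESeq2 and limma voom also called 0 of 32 in each. Of all tested genes, edgeR called 4, 0, 2 and 0, DESeq2 7, 2, 4 and 0 and voom 10, 4, 2 and 0, with 293, 104, 485 and 182 at an unadjusted p under 0.05. No gene of the 32 had knockout and wild-type libraries without overlap, beside 0.443% of all tested genes.

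The most abundant genes gave small differences by genotype. Over all libraries the log2 difference, knockout minus wild type, was -0.06 (SE 0.14, adjusted p = 0.9998) for Pkm, 0.07 (SE 0.12, adjusted p = 0.9998) for Ldha, 0.05 (SE 0.15, adjusted p = 0.9998) for Aldoa and -0.14 (SE 0.18, adjusted p = 0.9998) for Slc2a3. Their 95% intervals ran from -0.32 to 0.21 for Pkm, from -0.18 to 0.31 for Ldha, from -0.24 to 0.34 for Aldoa and from -0.49 to 0.20 for Slc2a3. The sign of each turned when 1 library was left out: Pkm gave 0.03 without knockout replicate 3, Ldha -0.02 without knockout replicate 5 and Slc2a3 0.17 without wild-type replicate 3. Aldoa gave -0.03 to -0.01 without 1 of 4 libraries, namely replicate 1 or 3 of the wild type and replicate 1 or 5 of the knockout. Among the 4 genes with the smallest p for genotype, Ldhb read -0.67 (SE 0.35, adjusted p = 0.9998), Pfkp 0.24 (SE 0.14, adjusted p = 0.9998), Adm 0.73 (SE 0.49, adjusted p = 0.9998) and Slc2a1 0.23 (SE 0.16, adjusted p = 0.9998). With 1 library left out, Ldhb ran from -0.94 (without knockout replicate 5) to -0.21 (without wild-type replicate 3). Without knockout replicate 5, Adm was at 0.36, Slc2a1 at 0.07 and Pfkp at 0.15, the lowest value of each, and without knockout replicate 4 they were at 0.95, 0.31 and 0.33, the highest.

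Ldhb was below its wild-type V6.5 level of 483 CPM in all 3 V6.5 knockout libraries, and below the Cas9-GFP level of 177 CPM in 2 of them. Its difference was -0.30 (SE 0.51) within RGM and -0.98 (SE 0.46) within run1, and the difference between them was 0.68 (SE 0.69). Without the filter on low counts, edgeR called Ldhb over all libraries (log2 -0.69, SE 0.14, adjusted p = 0.00043) and within run1 (log2 -0.99, SE 0.19, adjusted p = 0.00017), and Aldoc within run1 (log2 1.11, SE 0.24, adjusted p = 0.0038). Pfkp, an isoform of phosphofructokinase, ran from 230.2 to 267 CPM in wild-type and from 241 to 399 CPM in knockout libraries. Adm gave 0.14 (SE 0.69) within RGM and 1.21 (SE 0.63) within run1, where the knockout values span the spread of replicates 4 and 5 described above. With those 2 libraries left out, edgeR still called 0 of the 32 genes over all libraries and 0 within run1.

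By value, 22 of the 32 differences were above 0 and 10 below over all libraries, with a median of 0.11 beside 0.01 over all tested genes, of which 52.6% were above 0. The median was 0.02 within RGM and 0.25 within run1, beside 0.01 and 0.02 over all tested genes, with 17 of 32 above 0 within RGM (51.4% of all tested genes) and 25 of 32 within run1 (52.4%). Fibroblast markers were above 0 in 27 of 32 over all libraries and in 26 of 32 within run1, with medians of 0.15 and 0.19, and their part in the values of the list was not tested. The difference between the sets, RGM minus run1, had a median of -0.30 over the 32 genes, 23 of them below 0 and 9 above, beside -0.01 over all tested genes, of which 48.7% were above 0. For genotype over all libraries, the hypoxia-induced targets and energy-investment enzymes lay above 0 in 8 of 9 each, with medians of 0.17 and 0.10. The energy-payoff enzymes did so in 1 of 5, with a median of -0.06. In the difference between the sets, the first 2 roles lay above 0 in 1 of 9 each, with medians of -0.40 and -0.28, and the energy-payoff enzymes in 1 of 5, with -0.43. No single gene behind these medians passed the test. V6.5 knockout replicate 5, the highest of 9 libraries for 22 of the 32 genes (14.3% of all tested genes), enters the all-library and run1 values. It also enters the difference between the sets, and its part in these medians was not tested.

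**Figure D5:**
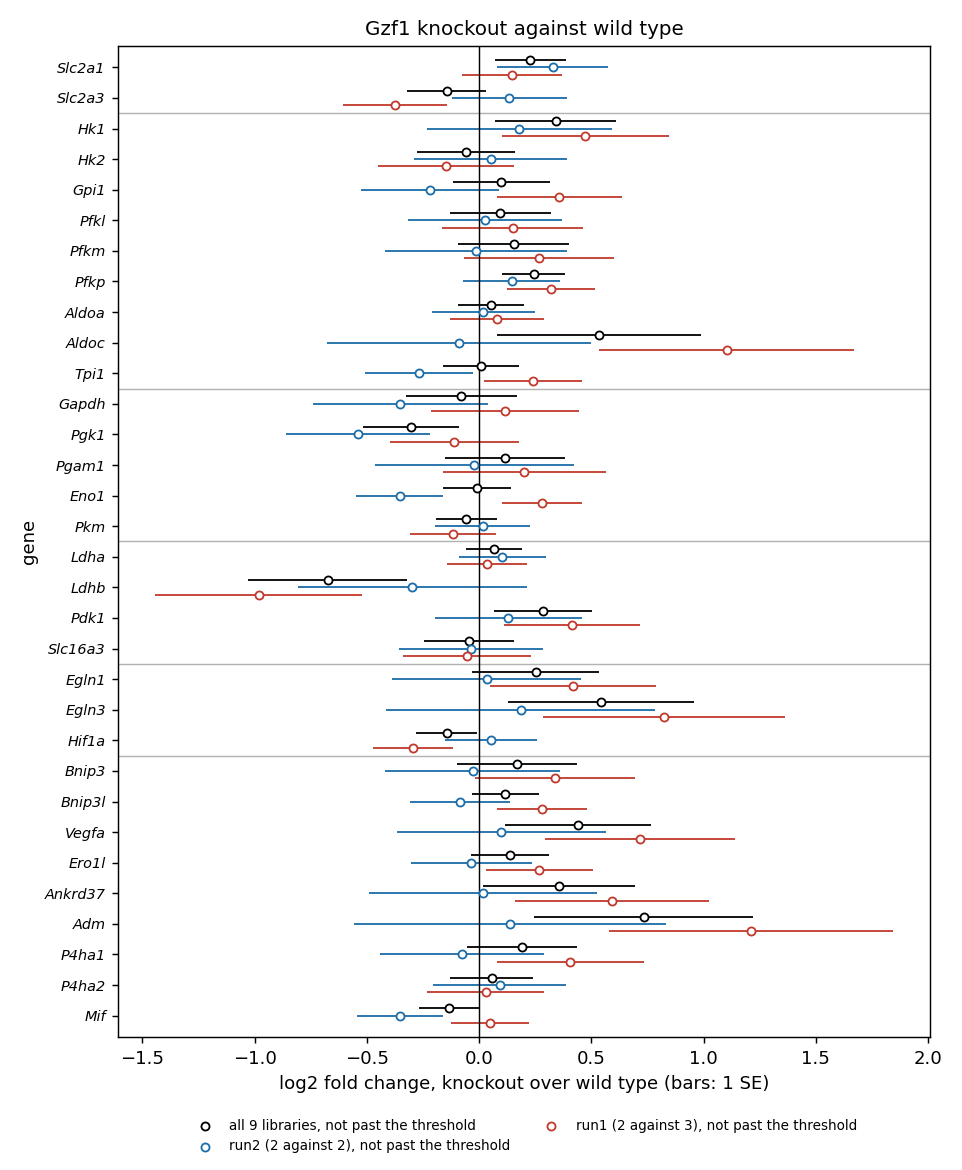
Log2 fold changes of knockout over wild type with bars of 1 SE for the 32 genes, over all 9 libraries (black), within RGM (blue) and within run1 (red). No point passed the threshold, and the red points spread more widely, from -0.98 for Ldhb to 1.21 for Adm.

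The rest of the pathway, from lists of genes outside the 32, was read in the same fits, and its counts stand beside the shares of all tested genes given above. For genotype over all libraries, edgeR called none in any of these lists. The most abundant gene of each list gave a log2 difference, knockout minus wild type, of -0.08 (SE 0.15) for Bsg, the partner of lactate exporters, 0.40 (SE 0.26) for Eno2, 0.08 (SE 0.22) for Txnip, -0.11 (SE 0.12) for Pdha1 and 0.18 (SE 0.13) for the transketolase Tkt. It was 0.10 (SE 0.18) for Galk1, 0.00 (SE 0.12) for Tceb2 and -0.08 (SE 0.12) for P4hb.

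Between RGM and run1 libraries, 1 of 5 tested genes of glucose uptake and lactate export passed, Slc2a5, a fructose transporter, which was at 0.79 to 1.28 CPM in RGM and 2.07 to 4.53 CPM in run1 libraries (adjusted p = 0.0395 in wild-type), close to the limit of detection. Of 8 other isoforms of glycolytic enzymes, Eno2, the neuronal enolase, was at 44.2 to 70.5 CPM in RGM against 6.41 to 16.6 CPM in run1 libraries. Its differences were log2 3.10, SE 0.39, adjusted p = 0.000432 in wild-type and log2 2.39, SE 0.32, adjusted p = 0.000432 in knockout libraries. Pgam2 was higher in wild-type (log2 1.44, SE 0.47, adjusted p = 0.0423) and Ldhc lower in knockout libraries (log2 -2.15, SE 0.73, adjusted p = 0.0467).

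Of 13 regulators of glycolytic flux, 3 were higher in wild-type, and 4 were higher and 1 lower in knockout libraries, with medians of 0.26 and 0.38. Txnip, which restrains glucose uptake, was at 308 to 490 CPM in RGM and 72.6 to 152 CPM in run1 libraries, with log2 2.28, SE 0.33, adjusted p = 0.00114 in wild-type and log2 1.73, SE 0.29, adjusted p = 0.00175 in knockout libraries. Mycn, a transcription factor of the Myc family, was at 271 to 329 CPM in RGM against 73.1 to 137 CPM in run1 libraries, with log2 1.26, SE 0.24, adjusted p = 0.00355 and log2 1.53, SE 0.22, adjusted p = 0.00053. Tigar, a phosphatase that lowers fructose bisphosphate, was higher in knockout libraries (log2 1.12, SE 0.25, adjusted p = 0.00731), and Minpp1, an inositol phosphatase, was higher in wild-type libraries (log2 0.84, SE 0.23, adjusted p = 0.0194). Fbp2, a gluconeogenic phosphatase, was lower in knockout libraries, at 0.32 to 1.35 CPM in RGM against 2.35 to 8.77 CPM in run1 libraries. Its RGM values lay around the limit of detection, since 3 counts stand for 0.81 to 1.18 CPM there.

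Of 13 genes of the pyruvate dehydrogenase complex and its regulators, Pdp1, a phosphatase that activates it, was higher (log2 1.07, SE 0.36, adjusted p = 0.0479) and Pdha1, its catalytic subunit, lower (log2 -0.54, SE 0.18, adjusted p = 0.0432) in wild-type libraries. Pdk3, a kinase like Pdk1, was lower in knockout libraries (log2 -0.57, SE 0.16, adjusted p = 0.0225), opposite in sign to Pdk1. Of 11 pentose phosphate genes, Rpia, an isomerase of ribose phosphate, was higher in both comparisons (log2 2.15, SE 0.29, adjusted p = 0.000606 in wild-type and log2 2.42, SE 0.26, adjusted p = 0.00011 in knockout libraries). G6pdx, the entry enzyme of that pathway, was lower in wild-type libraries (log2 -0.95, SE 0.24, adjusted p = 0.0129).

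Genes of glycogen and hexose interconversion had 5 of 17 higher and 1 lower in each comparison, with medians of 0.46 in wild-type and 0.59 in knockout libraries. Gys1, which synthesises glycogen, was the lower one in both, at 19.3 to 37.5 CPM in RGM against 127 to 163 CPM in run1 libraries, with log2 -2.43, SE 0.25, adjusted p = 0.000107 in wild-type and log2 -2.06, SE 0.23, adjusted p = 0.000124 in knockout libraries. Gyg, the primer of glycogen synthesis, and Pgm3, of hexosamine synthesis, were higher in both, with log2 differences of 1.35 and 1.03 for Gyg and 1.27 and 1.19 for Pgm3. Pygm, which breaks glycogen down, was higher in the wild-type comparison (log2 2.08, SE 0.57, adjusted p = 0.0196).

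Of 17 genes of the oxygen-sensing machinery, Egln2, the prolyl hydroxylase outside the list, was lower in RGM in both comparisons (log2 -0.73, SE 0.23, adjusted p = 0.0369 in wild-type and log2 -0.83, SE 0.22, adjusted p = 0.0164 in knockout libraries). In knockout libraries Vhl, which targets hydroxylated Hif1a for destruction, was higher (log2 0.76, SE 0.25, adjusted p = 0.0435), Os9 was higher (log2 0.79, SE 0.24, adjusted p = 0.0276) and Crebbp, a coactivator, was lower (log2 -1.98, SE 0.62, adjusted p = 0.0341), with 1 further gene higher.

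Of 51 other hypoxia-induced genes, 11 were higher and 5 lower in wild-type, and 6 were higher and 3 lower in knockout libraries, with medians of 0.19 and 0.01. In wild-type libraries the higher calls were above the 12.1% of all tested genes and the lower calls below the 12.3%, and in knockout libraries both were below the 12.6% and 12.4%. Edn1, an endothelin, was at 33.5 to 48.2 CPM in RGM and 1.94 to 6.22 CPM in run1 libraries, with log2 2.89, SE 0.35, adjusted p = 0.000383 in wild-type and log2 3.497, SE 0.33, adjusted p = 4.716e-05 in knockout libraries. Car9, a carbonic anhydrase, was at 6.20 to 7.37 CPM against 0.69 to 1.80 CPM and passed in both comparisons. Ets1, a transcription factor, was at 8.29 to 16.2 CPM against 1.65 to 3.46 CPM, and Ppp1r3c, a glycogen targeting subunit, passed in wild-type libraries (log2 3.13, SE 0.86, adjusted p = 0.0197). Lower in both, and named here because of their values, were Slc6a8, the creatine transporter (log2 -1.79, SE 0.41, adjusted p = 0.00939 in wild-type), Dpysl4 (log2 -2.14, SE 0.59, adjusted p = 0.0203) and Angptl4 (log2 -1.48, SE 0.29, adjusted p = 0.00394). Lox, which crosslinks collagen, was higher in both (log2 2.38, SE 0.30, adjusted p = 0.000428 and log2 2.32, SE 0.26, adjusted p = 0.000125). It is also one of the fibroblast markers, which were higher in RGM as given above, and the part of fibroblast RNA in these genes was not tested.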

How the data were processed

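Bulk poly(A) RNA libraries of 9 mouse embryonic stem cell samples were made by MARS-seq2.0, which reads tags at the 3′ end, per the labels' protocols. The authors deposited 1 table of whole-number counts for 30324 rows, 92 of them spike-in rows that were left out here. The submitters' processing notes name STAR, DESeq2 and mm10, with no versions. The sources used here do not give whether molecular identifiers were counted, whether strand was used, or how reads with several matches were treated.

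Counts were analysed in R 4.3.3 with edgeR 4.0.16: the default low-count filter with a minimum count of 10, TMM scaling, robust quasi-likelihood F tests and Benjamini-Hochberg adjustment over 12645 genes with a threshold of 0.05. Genotype over all libraries was fitted with run as a term, and the other comparisons as contrasts of 4 genotype-by-run groups over all 9 libraries. Alternatives used DESeq2 1.42.0, limma 3.58.1, other scalings and filters, and libraries left out. The fits were tested on simulated data. CPM used TMM-scaled library sizes. Libraries of the same genotype and run were compared in pairs by chi-square, and none differed by as little as sampling noise. Chi-square per degree of freedom was 2.53 for the wild-type and 3.16 for the knockout RGM pair. It was 15.1 between wild-type V6.5 and Cas9-GFP and 24.1 to 26.0 among V6.5 knockout libraries. The part of the higher total counts of run1 libraries in these values was not tested. Promoters are from RefSeq (GRCm38.p6), and exons and transcripts from GENCODE M21.

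Values and statistics are given for genes past the threshold, the 4 highest by mean CPM, the 4 with the smallest p for genotype, and up to 4 genes a comparison in each further list (with none past it, the most abundant). The 32 genes and the lists were chosen with earlier results of these data known, so neither is independent evidence. A result for a single gene is not reported here.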

Additional observations from a re-analysis of the deposited data

Results flagged for a closer look

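In the knockout group, Ero1l, an oxidase of the endoplasmic reticulum, was at 120.8 CPM in V6.5 knockout replicate 5 and between 57.6 and 72.6 CPM in the other 4 knockout libraries. The gap to the next library, divided by the range of the group, was above Dixon's 95% value for 5 samples (0.71). That value assumes samples of 1 population, whereas the knockout group pools RGM and V6.5 libraries of different runs. In each genotype 42 sets of values were tested in this way, with 1 such result in knockout and 0 in wild-type libraries, and chance gives about 1 in 20.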

How the results depend on the processing

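For genotype over all libraries, the 4 genes called became 7 with DESeq2, 10 with limma voom, 35 without the low-count filter (9 higher, 26 lower) and 2 without the run term, and 2 to 4 with 1 library left out. Of the 32 genes, 0 became 1 (Ldhb) without the filter and stayed 0 under the other alternatives run. Within RGM, 0 became 2 with DESeq2, 4 with voom, 7 without the filter, 9 with the RGM libraries alone and 0 to 1 with 1 library left out. Within run1, 2 became 4 with DESeq2, 1 with upper-quartile factors, 46 without the filter, 1 with run1 alone and 75 with knockout replicates 4 and 5 both left out (chosen after seeing the data), and 0 to 8 with 1 library left out. Without the filter the 32 genes had 2 calls there, and the difference between runs had 1 call over all genes. Slc2a3 turned to 0.028 with voom and to 0.17 without wild-type replicate 3 (range -0.28 to 0.17), and Pkm to 0.026 without knockout replicate 3 (range -0.16 to 0.026). Ldha ranged from -0.017 to 0.12 and Aldoa from -0.030 to 0.14 with 1 library left out, and Aldoa was -0.0075 without knockout replicates 4 and 5.

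For RGM against run1 in wild-type libraries, 3081 genes became 4868 with voom and 883 to 4087 with 1 library left out, and the 4 of 32 became 14 with voom, 16 without the filter, 18 with wild-type libraries alone and 0 to 14 with 1 library left out. In knockout libraries, 3160 became 1660 with knockout libraries alone and 892 to 3531 with 1 left out. The 7 of 32 became 12 with voom, 14 without the filter, 4 with knockout libraries alone, 14 without knockout replicates 4 and 5, and 0 to 13 with 1 left out. An arm left with 1 library was assumed to vary like the others. Of the 3081 and 3160 genes called, 0 changed sign under any of these alternatives in which they passed its filter. The cause of the changes without the filter and with voom was not tested, and other scalings moved the median of all genes by under 0.1 on the log2 scale. RGM libraries held fewer counts, with 20 to 32 for Pgam1 and 30 to 51 for Adm, and the part of depth was not tested.

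With the replicate number as a replicate block in place of run, 6 genes and 0 of the 32 were called for genotype, with Ldha at -0.017 and Aldoa at -0.022. With RGM libraries alone and the block, 5 genes were called. Deviations of same-numbered libraries from their group means had correlations of -0.07 for numbers 1 and 2, 0.30 for number 3 and 0.34 for number 4. In a group of 2 libraries the deviations are opposite by construction. The values of numbers 1 and 2 are therefore the same value, and those of numbers 3 and 4 are not independent. Numbers 3 and 4 correlated best with their own number and numbers 1 and 2 did not, so the numbers do not establish pairs.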
